A study of Rattus norvegicus with 9 samples.

Results

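The genes described are the 8 that encode the mechanotransduction complex and the tip links of hair cells: Cdh23, Pcdh15, Tmc1, Tmc2, Tmie, Lhfpl5, Cib2 and Cib3. They were chosen by matching these symbols, ignoring case, to the symbols of the count table, and each matched 1 of its 32883 genes. All 8 were among the 15517 genes that passed the filter on low counts. RNA was sequenced from the vestibular epithelium of male Long-Evans rats in 3 groups of 3, with 1 library per rat. Rats of the IDPN-3wk and IDPN-7wk groups drank water with 20 mM 3,3'-iminodipropionitrile (IDPN), a compound toxic to vestibular hair cells, for 3 or 7 weeks, and Control rats drank plain water. Both comparisons used the same 3 Control rats, drawn from controls of both exposure times, and the labels do not say which rat belongs to which time. The age of these rats is not stated. The utricles and cristae of each rat were pooled, so every level is an average over organs and over hair cells, supporting cells and adjoining tissue.

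Hair cells turn deflection of the stereocilia into current. A tip link made of cadherin 23 above and protocadherin 15 below pulls on a channel whose pore is formed by TMC1 and TMC2, and the channel works only with the accessory subunits TMIE, LHFPL5 and a calcium-binding CIB protein. Loss of function of several of these genes causes deafness, and vestibular hair cells use both TMC proteins and both CIB2 and CIB3.

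The libraries held between 31100118 and 46018385 counts. Levels are given in CPM, the counts of a gene divided by those of its library and scaled by TMM factors. They were not divided by transcript length, so levels of different genes are not compared, and where a gene is called the most abundant of a list or said to lead it, this means the highest CPM over all libraries and not the most transcripts. A count of 0 allows a level of up to 3 counts, which was between 0.0611 and 0.101 CPM, and such floors and the intervals given cover counting error or the spread between rats, not PCR duplication, since the libraries had no molecular identifiers. Fewer genes were detected at equal depth in 3 libraries, Control 3 with 15464, IDPN-3wk 1 with 15498 and IDPN-3wk 2 with 15387, than in the other 6, which had between 16834 and 17312. The IDPN-3wk group thus held 2 such libraries, and the groups differ in this respect. Leaving the 3 libraries out leaves IDPN-3wk 3 alone at 3 weeks, so values without them rest there on 1 rat, which is assumed to vary like the other groups.

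The tissue label was checked against 10 hair cell genes outside the complex, here called hair cell reference genes: Myo7a, Pou4f3, Gfi1, Lhx3, Barhl1, Smpx, Rasd2, Cabp2, Otof and Slc17a8. All 10 had counts, and the most abundant was Otof, at 703 ± 75.6 CPM (SD, n = 3) in Control. Their summed level was 1471, 1603 and 1456 CPM in the Control libraries, 1043, 1049 and 802 CPM at 3 weeks, and 892, 773 and 856 CPM at 7 weeks. The sum in every treated library lay below that in every Control library. In bulk tissue, fewer hair cells and less RNA per hair cell cannot be told apart, and this holds for the lower levels of hair cell genes given here.

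The 3-week comparison asks what an early stage of chronic exposure does to these genes, and the 7-week comparison asks the same of a later stage. A gene was called when edgeR's quasi-likelihood test gave a Benjamini-Hochberg adjusted p under 0.05 over all genes tested and the fold change was above 1.5. At 3 weeks 1 of the 8 genes, Tmc1, was called lower, against 1.21% of all genes tested. At 7 weeks 4 of the 8, Cdh23, Tmc1, Lhfpl5 and Cib3, were called lower, against 3.13% of all genes. The number called higher was 0 in both comparisons, with 0 higher at an unadjusted p under 0.05 and 0 called higher by DESeq2, against 0.438% of all genes at 3 weeks and 2% at 7 weeks. Levels were lower in all 3 treated libraries than in all 3 Control libraries for 3 members at 3 weeks, against 10.9% of all genes, and for 5 members at 7 weeks, against 17.1%. The median log2 fold change of the members was −0.58 at 3 weeks and −0.85 at 7 weeks, where the medians over all genes were −0.000467 and 0.00970. Fold changes below 0 were found for 6 members at 3 weeks and for all 8 at 7 weeks. Both comparisons used the same Control libraries, so their counts are not independent of each other. The counts of called genes rested on few libraries. Without Control 2, 0 members were called at 3 weeks, against 0.387% of all genes called lower. In that fit 4 members had an unadjusted p under 0.05, and the share of all genes was not counted. With all libraries, 3 members had such a p at 3 weeks, against 2444 of all 15517 genes. At 7 weeks 1 was called without IDPN-7wk 1 (1.68% of all genes) or IDPN-7wk 2 (2.08%), and 2 without Control 3 (2.18%) or IDPN-7wk 3 (1.85%), so the share of all genes was lower as well. Without the 3 libraries with fewer detected genes, 2 members were called lower at 3 weeks, with Pcdh15 added and IDPN-3wk 3 as the single treated library, against 1.05% of all genes, and 6 at 7 weeks, with Pcdh15 and Tmc2 added, against 5.44%.

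**Figure D1:**
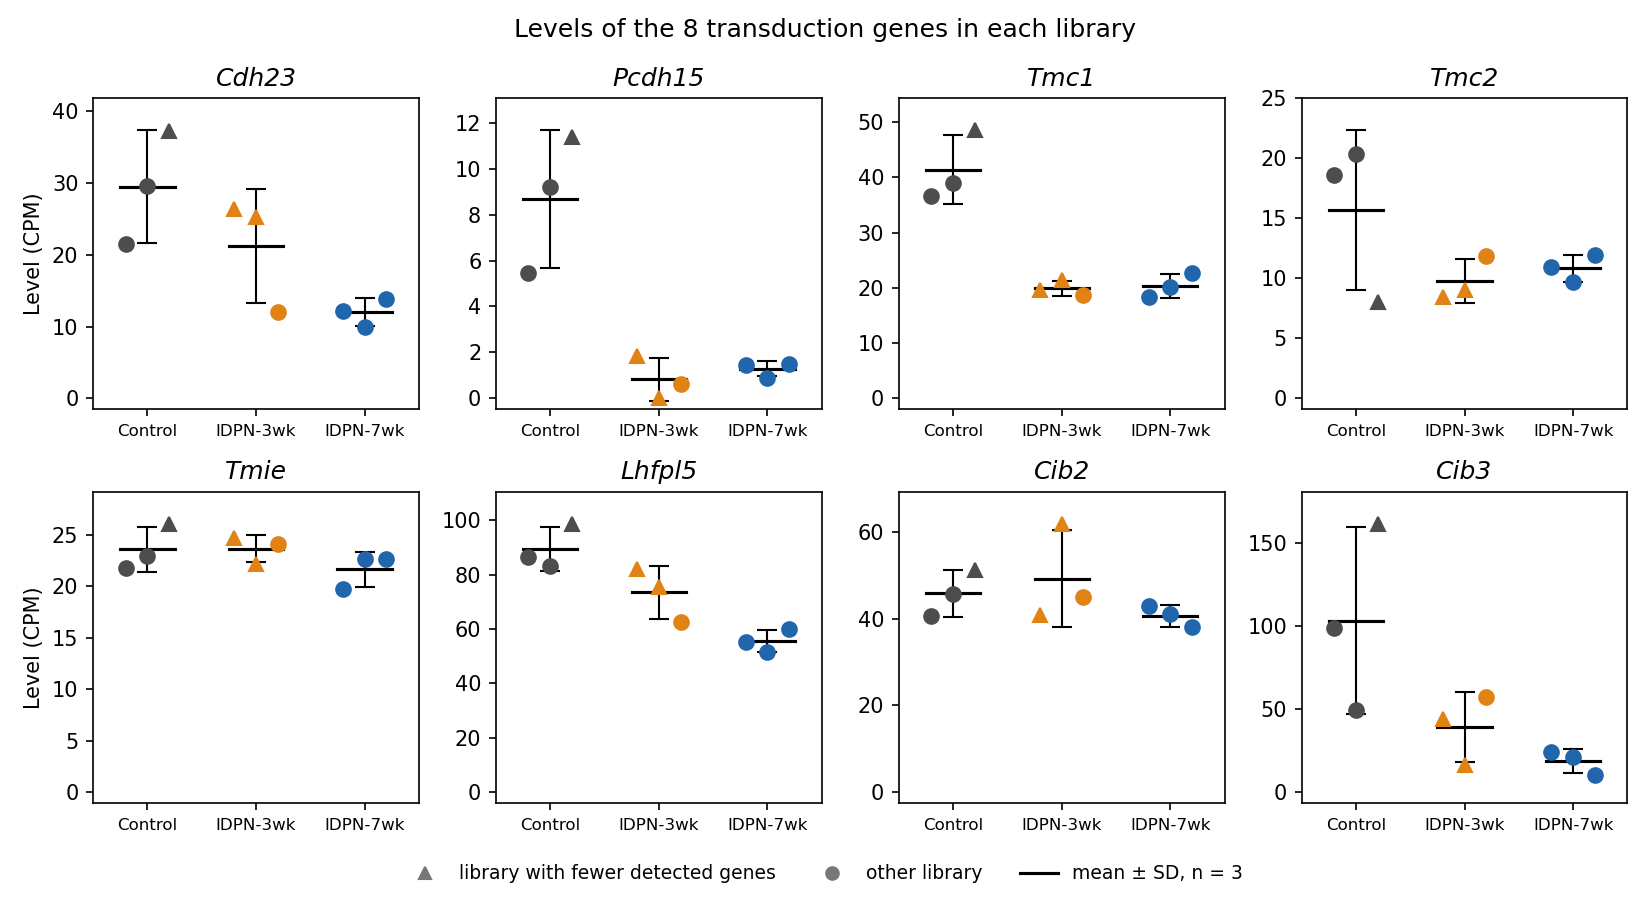
Level of each of the 8 genes in CPM (vertical axes, each from 0) in the 3 libraries of each group, with the mean and SD as black lines and triangles for the 3 libraries with fewer detected genes. Tmc1 lay between 18.3 and 22.7 CPM in the 6 treated libraries and between 36.6 and 48.5 CPM in Control, while Tmie had overlapping levels in all 3 groups.

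The sequence upstream of each gene was counted for CG dinucleotides, as a feature the choice of genes did not use. In RefSeq (GRCr8), all 8 genes matched 1 promoter each among 33465, and the 250 bases before the start held a median of 5 CG over all promoters. A CG was present in 92.2% of them, and CG reads the same on both strands. Cdh23 had 38 CG, as many or more than which were found in 1.69% of promoters, and Tmie had 33, reached by 3.60%. Tmc1 had 0, shared by 7.81% of promoters. Between them lay Lhfpl5 with 22, Cib2 with 18, Pcdh15 and Tmc2 with 6 each, and Cib3 with 3. The members with the most CG and the member with none are printed 5′ to 3′ because they show the width of this range, with each CG in capitals. They are Cdh23 at chr20:29165333-29165582 on the minus strand, Tmie at chr8:119743220-119743469 on the minus strand, and Tmc1 at chr1:227872535-227872784 on the minus strand.
Cdh23: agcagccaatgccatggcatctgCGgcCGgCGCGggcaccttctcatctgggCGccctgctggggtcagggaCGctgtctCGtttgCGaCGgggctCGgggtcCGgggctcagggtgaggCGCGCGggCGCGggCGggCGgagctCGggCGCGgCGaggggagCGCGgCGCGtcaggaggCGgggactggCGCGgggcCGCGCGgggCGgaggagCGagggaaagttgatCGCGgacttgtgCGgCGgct
Tmie: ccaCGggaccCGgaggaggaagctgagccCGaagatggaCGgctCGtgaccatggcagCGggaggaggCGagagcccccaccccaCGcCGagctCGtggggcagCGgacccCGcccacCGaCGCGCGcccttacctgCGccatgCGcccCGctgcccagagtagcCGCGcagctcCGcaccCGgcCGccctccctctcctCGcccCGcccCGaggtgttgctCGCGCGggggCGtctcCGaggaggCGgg
Tmc1: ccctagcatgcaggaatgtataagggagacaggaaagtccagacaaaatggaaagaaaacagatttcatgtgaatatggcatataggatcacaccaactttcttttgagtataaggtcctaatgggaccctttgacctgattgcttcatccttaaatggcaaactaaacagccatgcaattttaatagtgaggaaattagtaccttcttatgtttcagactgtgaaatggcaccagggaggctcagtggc
Cdh23 and Tmc1 were both called at 7 weeks and stand at opposite ends of this range, while Tmie, at the CG-rich end, was not called in any comparison. A CG count is a description of these 250 bases and not a measure of promoter activity.

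**Figure D2:**
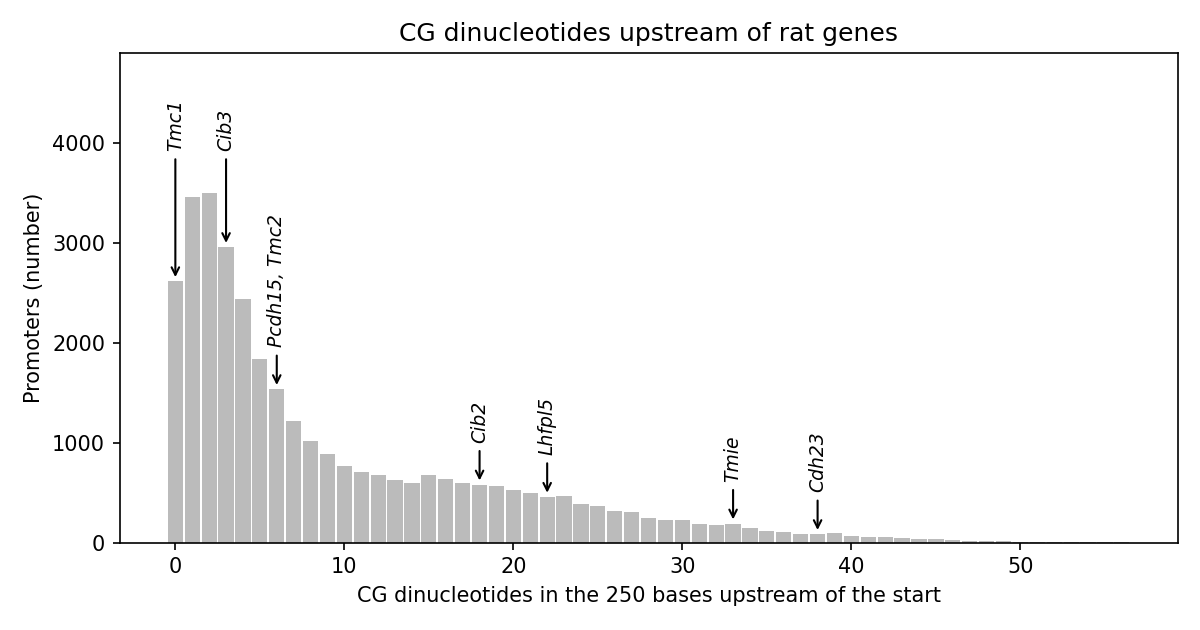
Number of RefSeq promoters (vertical axis) by the number of CG dinucleotides in the 250 bases upstream of the start (horizontal axis), with arrows at the 8 genes. The genes ran from 0 CG (Tmc1) to 38 CG (Cdh23), around a median of 5 over all 33465 promoters.

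Cdh23 (ENSRNOG00000033087) encodes cadherin 23, the upper part of the tip link. Its level was 21.5, 29.6 and 37.3 CPM in the Control libraries, 26.4, 25.2 and 12.1 CPM at 3 weeks, and 12.2, 9.93 and 13.9 CPM at 7 weeks. All 7-week libraries lay below all Control libraries, while at 3 weeks only IDPN-3wk 3 did and the 2 libraries with fewer detected genes lay within the Control range. At 3 weeks the log2 fold change was −0.47 (95% confidence interval −1.16 to 0.22, adjusted p = 0.502). At 7 weeks it fell by 1.29 on the log2 scale (SE 0.314, interval −1.99 to −0.60, adjusted p = 0.0384), to 40.8% of the Control level. This call at 7 weeks was lost without Control 2 (adjusted p = 0.104), Control 3 (0.124), IDPN-7wk 1 (0.135), IDPN-7wk 2 (0.145) or IDPN-7wk 3 (0.0907), and the adjusted p ranged from 0.00145 to 0.145 over its alternatives. Among the 6 libraries outside those with fewer detected genes, the log2 ratio of mean levels was −1.08 at 3 weeks, from 1 treated library, and −1.09 at 7 weeks.

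Pcdh15 (ENSRNOG00000000606) encodes protocadherin 15, the lower part of the tip link. It was counted 202, 294 and 404 times in the Control libraries, 67, 0 and 21 times at 3 weeks, and 72, 44 and 59 times at 7 weeks. These counts correspond to 5.45, 9.21 and 11.4 CPM in Control, 1.83, 0 and 0.646 CPM at 3 weeks, and 1.47, 0.905 and 1.49 CPM at 7 weeks. All 6 treated libraries lay below all 3 Control libraries, and the count of 0 in IDPN-3wk 2 allows up to 0.101 CPM. The mean was 8.67 ± 3.00 CPM in Control, 0.824 ± 0.926 CPM at 3 weeks and 1.29 ± 0.333 CPM at 7 weeks (SD, n = 3). The log2 fold changes were the most negative of the 8, −3.38 at 3 weeks (interval −5.70 to −1.06) and −2.75 at 7 weeks (interval −5.00 to −0.51), but neither was called (adjusted p = 0.150 and 0.161). This rank at 7 weeks passed to Cib3 without Control 2 (−2.80 against −2.70) or IDPN-7wk 2 (−2.56 against −2.55). The biological coefficient of variation that edgeR fitted to Pcdh15 was 79.5%, against a median of 23.1% over all genes. DESeq2 called it lower at both times (adjusted p = 0.00731 and 0.0280), as did edgeR without the 3 libraries with fewer detected genes (0.0348, from the single 3-week library IDPN-3wk 3, and 0.00318). With only Control and the 7-week libraries in the fit, edgeR called it at 7 weeks (0.00395). Over the alternatives the adjusted p ranged from 0.00731 to 0.310 at 3 weeks and from 0.00318 to 0.386 at 7 weeks. The log2 fold change at 3 weeks was −2.80 without IDPN-3wk 2 and −4.71 without IDPN-3wk 1.

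Tmc1 (ENSRNOG00000051262) encodes a pore subunit of the transduction channel. Its level was 36.6, 38.9 and 48.5 CPM in the Control libraries, 19.6, 21.4 and 18.8 CPM at 3 weeks, and 18.3, 20.1 and 22.7 CPM at 7 weeks. The 6 treated libraries lay close together and below every Control library. Tmc1 fell to 48.2% of the Control level at 3 weeks (interval of the log2 fold change −1.42 to −0.69) and to 49.3% at 7 weeks (interval −1.38 to −0.66). The adjusted p ranged from 6.15e-08 to 0.0515 over the alternatives at 3 weeks and from 4.31e-08 to 0.0304 at 7 weeks. Only without Control 2 was the call at 3 weeks lost (adjusted p = 0.0515). The log2 ratio of 3-week to Control mean levels was −1.24 among the 3 libraries with fewer detected genes, which hold 1 Control library, and −1.01 among the others, which hold 1 library of 3 weeks.

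Tmc2 (ENSRNOG00000007017) encodes the other pore subunit. Its level was 18.6, 20.4 and 8.05 CPM in the Control libraries, 8.45, 9.02 and 11.8 CPM at 3 weeks, and 10.9, 9.70 and 11.9 CPM at 7 weeks. Control 1 and Control 2 lay above all treated libraries and Control 3, a library with fewer detected genes, below all of them, so the groups overlapped. The log2 fold change was −0.68 at 3 weeks (interval −1.41 to 0.05, adjusted p = 0.350) and −0.53 at 7 weeks (interval −1.26 to 0.19, adjusted p = 0.436). Without the 3 libraries with fewer detected genes, Tmc2 was called lower at 7 weeks, with a log2 fold change of −0.85 (adjusted p = 0.0138, range over the alternatives 0.0138 to 0.755).

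The counts of Tmc1 divided by those of Tmc2 gave 1.97, 1.91 and 6.03 in Control, 2.33, 2.37 and 1.59 at 3 weeks, and 1.68, 2.07 and 1.90 at 7 weeks. Apart from Control 3, the 3 groups had similar ratios. The difference in log2 ratio from Control was −0.46 at 3 weeks (exact two-sided permutation p = 0.7) and −0.59 at 7 weeks (exact permutation p = 0.4), and without Control 3 these were 0.09 and −0.05. With 3 libraries against 3 the smallest p this test can give is 0.1.

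Tmie (ENSRNOG00000027799) encodes a membrane protein that the channel needs to work. Its level was 21.7, 22.9 and 26.1 CPM in Control, 24.7, 22.2 and 24.1 CPM at 3 weeks, and 19.7, 22.6 and 22.7 CPM at 7 weeks. The 3 groups overlapped. The log2 fold change was 0.0036 at 3 weeks (interval −0.34 to 0.34, adjusted p = 0.994) and −0.12 at 7 weeks (interval −0.46 to 0.22, adjusted p = 0.752), and both intervals exclude a drop as large as that of Tmc1. The sign at 3 weeks changed under 5 alternatives.

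Lhfpl5 (ENSRNOG00000022283) encodes a subunit that joins protocadherin 15 to the channel. Its level was 86.5, 83.1 and 98.6 CPM in Control, 82.1, 75.6 and 62.7 CPM at 3 weeks, and 55.3, 51.6 and 60.0 CPM at 7 weeks. The 3 groups did not overlap, although IDPN-3wk 1 lay just below Control 2. At 3 weeks the log2 fold change was −0.28 (interval −0.57 to 0.0040, adjusted p = 0.324), and −0.43 (adjusted p = 0.195) without the 3 libraries with fewer detected genes, from 1 treated library. Over the alternatives at 3 weeks the adjusted p ranged from 0.134 to 0.527. At 7 weeks Lhfpl5 fell to 62.2% of Control, with a log2 fold change of −0.69 (SE 0.130, interval −0.97 to −0.40, adjusted p = 0.0123). That call was lost without IDPN-7wk 1 (adjusted p = 0.0525) or IDPN-7wk 2 (0.0565) and with a fold threshold of 2, and the adjusted p ranged from 3.58e-05 to 0.0565.

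Cib2 (ENSRNOG00000059834) and Cib3 encode calcium-binding subunits that bind the TMC proteins. The level of Cib2 was 40.5, 45.8 and 51.3 CPM in Control, 40.9, 61.9 and 45.0 CPM at 3 weeks, and 43.0, 41.0 and 38.0 CPM at 7 weeks. All groups overlapped, and the highest value was in IDPN-3wk 2. The log2 fold change was 0.10 at 3 weeks (interval −0.28 to 0.48, adjusted p = 0.830) and −0.17 at 7 weeks (interval −0.55 to 0.20, adjusted p = 0.667). Without IDPN-3wk 2 the fold change at 3 weeks had the opposite sign, at −0.0961.

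Cib3 (ENSRNOG00000014600) varied widely between rats of a group. Its level was 98.7, 49.4 and 161 CPM in Control, 43.9, 16.3 and 57.2 CPM at 3 weeks, and 24.4, 20.9 and 10.5 CPM at 7 weeks. The 7-week libraries lay below all Control libraries, and at 3 weeks IDPN-3wk 3 lay above Control 2. The log2 fold change was −1.40 at 3 weeks (interval −2.54 to −0.26, adjusted p = 0.219). At 7 weeks Cib3 fell to 18.1% of Control, with a log2 fold change of −2.47 (SE 0.532, interval −3.65 to −1.29, adjusted p = 0.0225). The call at 7 weeks was lost without Control 1 (adjusted p = 0.0596), Control 3 (0.0740), IDPN-7wk 1 (0.0642), IDPN-7wk 2 (0.0754) or IDPN-7wk 3 (0.0908), and with a covariate for fewer detected genes (0.0523), and the adjusted p ranged from 0.00134 to 0.0908. At 3 weeks the log2 ratio of mean levels was −2.42 among the libraries with fewer detected genes, with 1 Control library, and −0.37 among the others, with 1 treated library.

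The counts of Cib2 divided by those of Cib3 gave 0.411, 0.927 and 0.318 in Control, 0.931, 3.80 and 0.787 at 3 weeks, and 1.76, 1.96 and 3.61 at 7 weeks. Every 7-week ratio was above every Control ratio, while the 3-week ratios overlapped both groups. The difference in log2 ratio from Control was 1.51 at 3 weeks (exact permutation p = 0.2), or 0.79 without IDPN-3wk 2, and 2.23 at 7 weeks (exact permutation p = 0.1, the smallest possible).

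**Figure D3:**
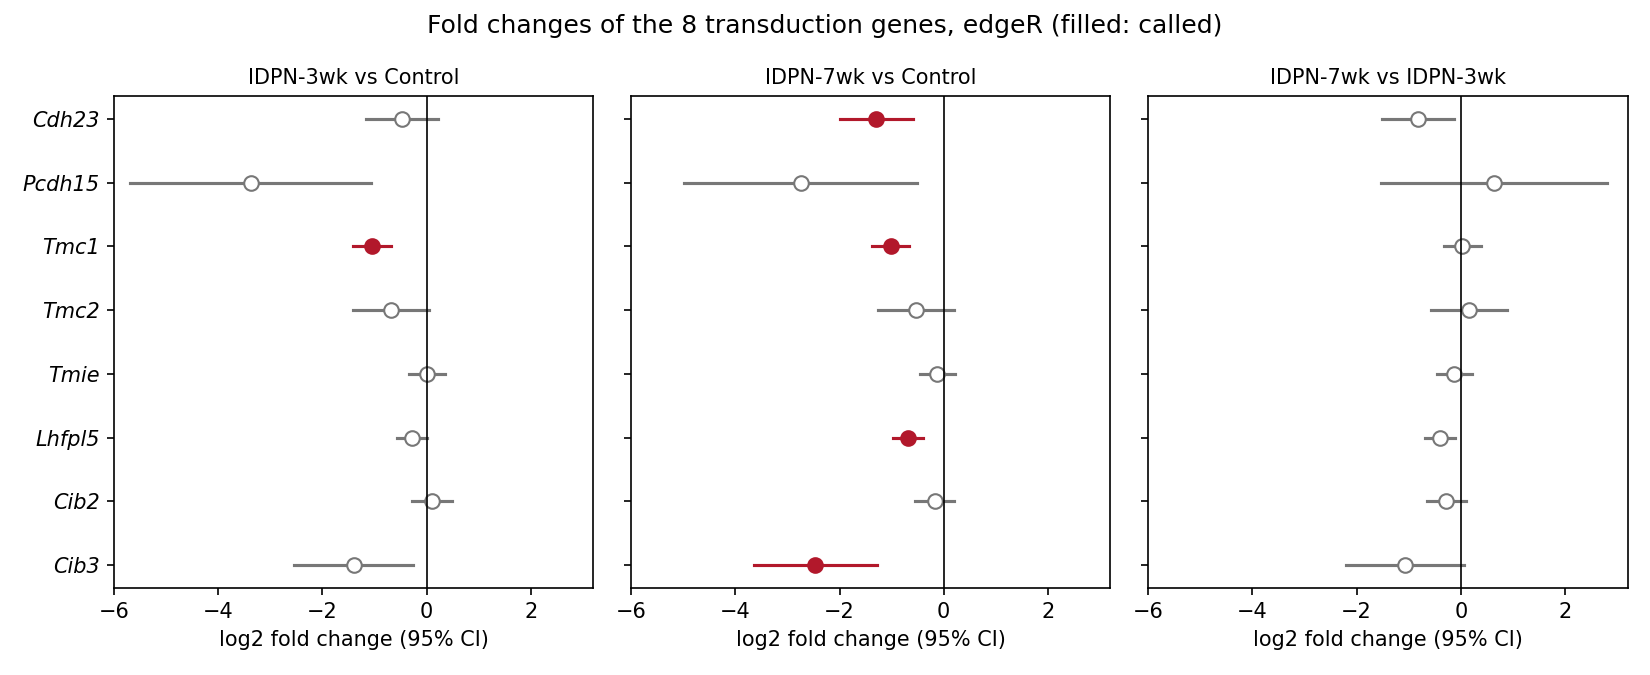
Log2 fold change of each of the 8 genes (horizontal axes) with its 95% confidence interval, from edgeR, in the comparisons of 3 weeks with Control, 7 weeks with Control and 7 weeks with 3 weeks. Filled red points mark the calls, 1 at 3 weeks and 4 at 7 weeks, and the widest intervals are those of Pcdh15.

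The direct comparison of 7 with 3 weeks asks whether longer exposure changed the levels further. Members called lower numbered 0 by edgeR, against 0.135% of all genes, and 0 by DESeq2, against 2.03%. At an unadjusted p under 0.05 edgeR had 2 members, both lower, against 2140 of all 15517 genes in either direction. Members called higher also numbered 0, against 0.348% of all genes, with 0 higher at an unadjusted p under 0.05 and 0 by DESeq2. Lhfpl5 was the 1 member lower in all 3 libraries at 7 weeks than in all 3 at 3 weeks, against 8.92% of all genes, with a log2 fold change of −0.40 (interval −0.69 to −0.11, unadjusted p = 0.0110, adjusted p = 0.214). It was −0.21 with the covariate for fewer detected genes and −0.18 without those libraries, which leaves 1 library at 3 weeks. Cdh23 had a log2 fold change of −0.82 (interval −1.52 to −0.13, unadjusted p = 0.0247, adjusted p = 0.287), and among the libraries outside those with fewer detected genes the log2 ratio of its mean levels was −0.01. Cib3 had a log2 fold change of −1.07 (interval −2.21 to 0.07, adjusted p = 0.394), and −1.62 without the libraries with fewer detected genes. For Tmc1 it was 0.03 (interval −0.33 to 0.39, adjusted p = 0.964), with values on either side of 0 over the alternatives. The calls made at 7 weeks and not at 3 weeks for Cdh23, Lhfpl5 and Cib3 were thus not shown to differ between the times. The adjusted p of the other members, Pcdh15, Tmc2, Tmie and Cib2, lay between 0.520 and 0.896.

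Each gene was next set against the summed counts of the 10 hair cell reference genes in the same library, which takes out a change shared with those genes. Since the reference genes were lower in the treated libraries, a gene with a steady level stands higher on this scale: the median difference in log2 ratio over all 15517 genes tested was 0.64 at 3 weeks and 0.87 at 7 weeks. Members below Control in all 3 libraries on this scale numbered 2 at 3 weeks, Pcdh15 and Tmc1, against 1.73% of all genes, and 2 at 7 weeks, Pcdh15 and Cib3, against 2.18%. Members above Control in all 3 libraries numbered 3 at 3 weeks, Tmie, Lhfpl5 and Cib2, against 47.2% of all genes, and 2 at 7 weeks, Tmie and Cib2, against 69.5%. Per 1000 reference counts, Tmc1 had 24.9, 24.3 and 33.3 counts in Control, 18.8, 20.4 and 23.4 at 3 weeks, and 20.6, 26.0 and 26.5 at 7 weeks. The 3-week libraries were all below Control and the 7-week libraries overlapped with it. The difference in log2 ratio was −0.39 at 3 weeks (exact permutation p = 0.1), or −0.24 without Control 3, and −0.17 at 7 weeks (exact permutation p = 0.6). Pcdh15 had 3.70, 5.74 and 7.81 counts per 1000 in Control, 1.75, 0 and 0.805 at 3 weeks, and 1.64, 1.17 and 1.75 at 7 weeks. It remained below Control in all 6 treated libraries, with differences in log2 ratio of −3.42 at 3 weeks, the library at 0 being set at 3 counts, and −1.88 at 7 weeks (exact permutation p = 0.1 for each). The 3-week difference was −2.21 without IDPN-3wk 2, the library at 0, and −4.30 without IDPN-3wk 1.

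Cib3 had 67.1, 30.8 and 111 counts per 1000 reference counts in Control, 42.1, 15.5 and 71.2 at 3 weeks, and 27.4, 27.0 and 12.3 at 7 weeks. It was below Control in all 7-week libraries, by a log2 ratio of −1.55 (exact permutation p = 0.1). Cdh23 had 14.6, 18.4 and 25.6 in Control, 25.3, 24.0 and 15.1 at 3 weeks, and 13.7, 12.8 and 16.2 at 7 weeks, and its groups overlapped. Its difference at 7 weeks was −0.42 (exact permutation p = 0.2), or −0.21 without Control 3 and −0.62 without Control 1. Against the reference genes, the level of Cdh23 at 7 weeks was thus not separated from Control.

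Tmie and Cib2 stood about as far above Control on this scale as the median of all genes. Tmie had 14.8, 14.3 and 17.9 counts per 1000 reference counts in Control, 23.6, 21.1 and 30.0 at 3 weeks, and 22.1, 29.3 and 26.5 at 7 weeks. Cib2 had 27.5, 28.6 and 35.3 in Control, 39.2, 59.0 and 56.1 at 3 weeks, and 48.2, 53.0 and 44.4 at 7 weeks. Both were above Control in all 6 treated libraries, with differences in log2 ratio of 0.66 and 0.73 for Tmie and of 0.74 and 0.68 for Cib2 at 3 and 7 weeks (exact permutation p = 0.1 for each). Lhfpl5 had 58.8, 51.8 and 67.8 in Control, 78.7, 72.1 and 78.2 at 3 weeks, and 62.0, 66.7 and 70.1 at 7 weeks. It was above Control in all 3-week libraries, by 0.37 (exact permutation p = 0.1), and overlapped at 7 weeks, at 0.16 (exact permutation p = 0.3). Tmc2 overlapped at both times, with differences of 0.07 and 0.42, which were −0.33 and 0.02 without Control 3. Some of these differences depended on Otof and Cabp2, the most abundant reference genes. Without them the 3-week differences were −0.64 for Tmc1, 0.41 for Tmie, −0.18 for Tmc2 and 0.12 for Lhfpl5, whose 3-week and Control libraries then overlapped (exact permutation p = 0.3), and Tmc1 was below Control in all 7-week libraries, by −0.27 (exact permutation p = 0.1).

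**Figure D4:**
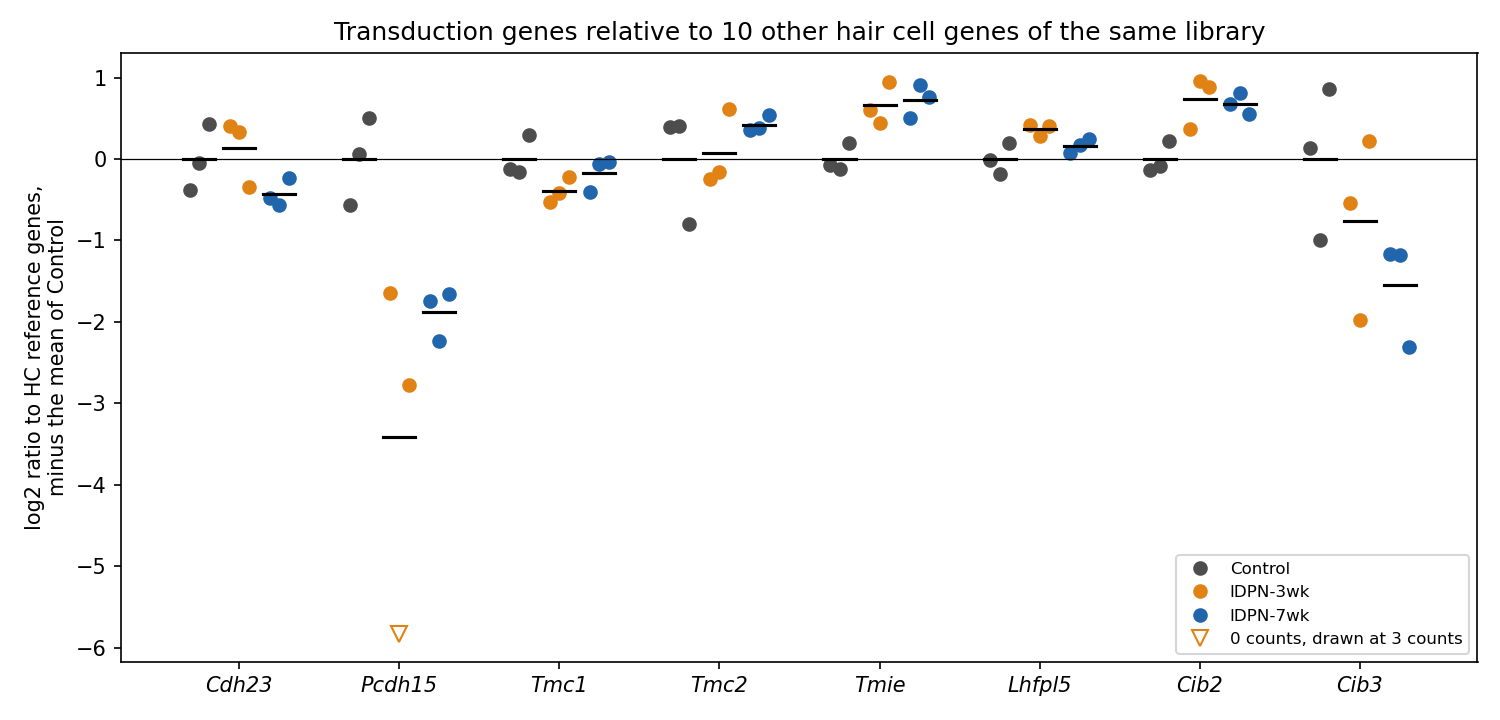
Log2 ratio of each gene's counts to the summed counts of the 10 hair cell reference genes of the same library, minus the mean of Control (vertical axis), for the 8 genes and 3 groups, with the group mean as a black bar. Pcdh15 lay below Control and Tmie and Cib2 above it in all 6 treated libraries, where the median of all genes was 0.64 above at 3 weeks and 0.87 above at 7 weeks, and the open triangle is the Pcdh15 count of 0 in IDPN-3wk 2, drawn at 3 counts.

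The reference genes themselves were called lower for 3 of 10 at 3 weeks (Lhx3, Smpx and Otof) and 6 of 10 at 7 weeks (Pou4f3, Lhx3, Smpx, Cabp2, Otof and Slc17a8). Their median log2 fold changes, −0.48 and −0.98, were near the members' medians of −0.58 and −0.85. Summed over the 8 members, the level was 329.7, 299 and 443 CPM in Control, 248, 232 and 232 CPM at 3 weeks, and 185, 177 and 181 CPM at 7 weeks, with no overlap between either treated group and Control. This sum leans on Cib3, whose mean level was 103 CPM in Control, 39.1 CPM at 3 weeks and 18.6 CPM at 7 weeks. At 3 weeks Cib3 overlapped Control and was not called.

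Of 14 other genes of the tip link and the transduction apparatus, all passed the filter, and 2 were called lower at both 3 and 7 weeks. The median of their log2 fold changes lay at −0.42 in the 3-week and −0.50 in the 7-week comparison. Loxhd1, a stereociliary protein needed for hearing, had 92.2 ± 14.7 CPM (SD, n = 3) in Control, 28.7 ± 0.963 CPM at 3 weeks and 37.2 ± 7.63 CPM at 7 weeks. It fell by 1.68 on the log2 scale at 3 weeks (adjusted p = 0.00173) and fell by 1.31 at 7 weeks (adjusted p = 0.00184). Atp2b2, the calcium pump of the stereocilia, had 131 ± 18.6, 46.1 ± 4.05 and 44.9 ± 3.21 CPM. It fell by 1.51 at 3 weeks (adjusted p = 0.000758) and fell by 1.54 at 7 weeks (adjusted p = 0.000182). These drops were larger than that of Tmc1 in the same libraries, although the difference between genes was not tested.

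Tomt, which brings TMC1 to the hair bundle, was read from the entry Lrtomt, a symbol for which RefSeq gives Tomt as a synonym, and the match was not checked further. It had 49.5 ± 5.57 CPM in Control, 41.5 ± 1.93 CPM at 3 weeks and 38.9 ± 0.780 CPM at 7 weeks and was not called (adjusted p = 0.361 and 0.148). Ush1c, the scaffold protein harmonin at the upper end of the tip link, had 1157 ± 37.5, 1055 ± 77.8 and 789.7 ± 135 CPM. Its log2 fold change at 7 weeks was −0.55 (adjusted p = 0.0245), a fold below 1.5, and it was called without IDPN-7wk 2 (log2 fold change −0.64, adjusted p = 0.0308, range over the alternatives 0.000933 to 0.0843). Myo7a, the motor at the same site, had 178 ± 14.0, 136 ± 12.7 and 142 ± 15.4 CPM and was not called (adjusted p = 0.128 and 0.137). Ush1g, its partner, was near the limit of detection, at 0.294, 0.176 and 0.451 CPM. Myo1c, Whrn, Clrn1, Clrn2, Grxcr1, Pkhd1l1, Gipc3 and Piezo2 were not called at either time. Between 7 and 3 weeks 0 of the 14 were called by edgeR, with 3 at an unadjusted p under 0.05 and 0 called lower by DESeq2. Over all 15517 genes tested, 2140 had such an unadjusted p.

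Related genes of the TMC, LHFPL and CIB families could be followed for 9 genes. Of 14 names listed, Tmc6 and Lhfpl3 had no entry, Lhfp and Lhfpl6 shared 1 entry, and Tmc3 and Cib4 had 0 counts in all libraries. Called genes numbered 0 by edgeR in the 3 comparisons, with 3, 2 and 0 at an unadjusted p under 0.05, while DESeq2 called 1, Tmc4, lower at 3 weeks. Over all 15517 genes tested, 2444, 2992 and 2140 had such an unadjusted p. The most abundant relative of Tmc1 and Tmc2 was Tmc4, at 72.2 ± 24.1 CPM in Control. It had 37.4 ± 3.90 CPM at 3 weeks and 49.8 ± 8.27 CPM at 7 weeks. Its log2 fold changes were −0.95 (adjusted p = 0.0663) and −0.54 (adjusted p = 0.215). Without Control 3 they were −0.64 and −0.23. Without the 3 libraries with fewer detected genes they were −0.50, from 1 treated library, and −0.23. At 3 weeks edgeR called Tmc4 lower with no count filter (adjusted p = 0.0495) and with at least 10 counts in every library (0.0402), and over the alternatives the adjusted p ranged from 0.00226 to 0.276. Lhfpl2, at 118 ± 23.7, 152 ± 22.0 and 131 ± 15.5 CPM, and Cib1, at 28.1 ± 5.31, 38.9 ± 5.13 and 36.8 ± 3.88 CPM, had fold changes above 0 that were not called.

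How alike the 8 members were was measured on log2 CPM centred on each gene's mean over the 9 libraries. The root mean square difference from the members' average was 0.243 for Tmc1, 0.360 for Lhfpl5, 0.489 for Cdh23, 0.499 for Tmie, 0.553 for Tmc2, 0.587 for Cib2, 0.781 for Cib3 and 1.75 for Pcdh15, in log2 units. Against this average, which includes Pcdh15, Tmc1 was closest and Pcdh15 furthest. Pcdh15 lay furthest largely through IDPN-3wk 2, where it had 0 counts and its centred value, set by the prior count, was −4.97. Without Pcdh15 the average in that library was −0.13 in place of −0.73. The first place of Tmc1 depended on Pcdh15 as well, since Lhfpl5 lay nearer than Tmc1 to the average without it. The genes outside the list closest to the average over the 9 libraries were Plk2 (ENSRNOG00000011951, difference 0.148), Ano4 (ENSRNOG00000006841, 0.151), Krt71 (ENSRNOG00000049495, 0.159), Gpr37 (ENSRNOG00000002524, 0.165) and Olfm3 (ENSRNOG00000017969, 0.171). These neighbours depended on Pcdh15. With the average taken without it, an alternative chosen after seeing the data, 0 of the 5 were shared.

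**Figure D5:**
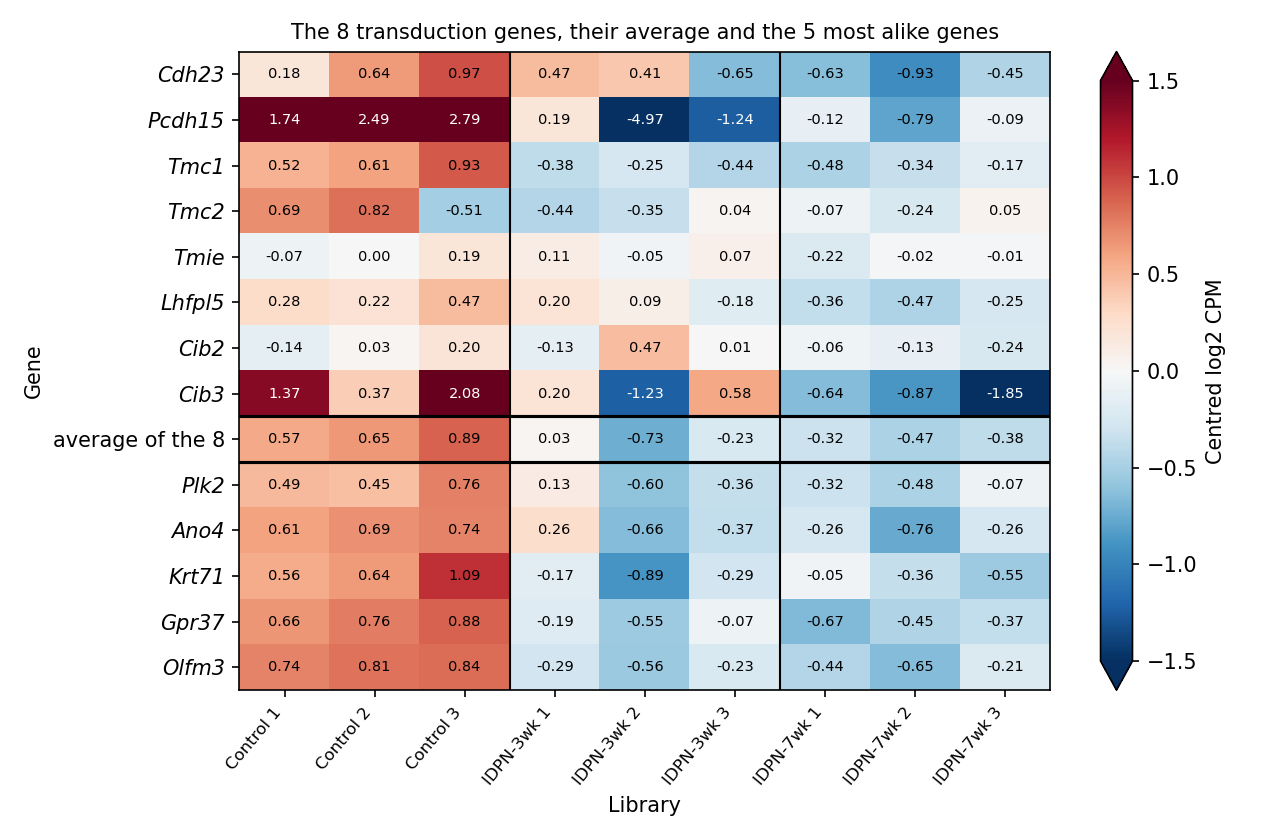
Centred log2 CPM (colour and printed values) of the 8 genes, their average and the 5 genes closest to it, in each of the 9 libraries (columns). The average was above 0 in the 3 Control libraries (0.57 to 0.89) and lowest in IDPN-3wk 2 (−0.73), or in IDPN-7wk 2 (−0.43) with Pcdh15 left out, and colours stop at −1.5 and 1.5, so the darkest cells are to be read from their printed values.

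The markers of other cells described here also differed between groups, and their part in the members' lower levels was not tested. Several of the supporting cell markers are also expressed elsewhere in the labyrinth. Supporting cell markers were called lower for 1 of 9 genes at 3 weeks and 5 of 9 at 7 weeks. Their summed level was 14789, 14815 and 15137 CPM in Control, 9119.5, 11456 and 9017 CPM at 3 weeks, and 5564, 8414 and 7531 CPM at 7 weeks, with Otog the most abundant. The sum was thus below Control in every treated library, as was that of the hair cell reference genes, although single genes of both lists were not, such as Gjb2 at 1435 CPM in IDPN-3wk 3 and Gfi1 at 74.3 CPM in IDPN-3wk 2, against at most 1279 and 54.1 CPM in Control. Macrophage markers summed to 80.5, 51.7 and 94.5 CPM in Control, 40.9, 114 and 39.8 CPM at 3 weeks, and 203, 166 and 159 CPM at 7 weeks, with Csf1r the most abundant of 6 and C1qb called higher at 7 weeks. Neuron markers, led over all libraries by Nefl, summed to 104, 118 and 105 CPM in Control, 63.8, 75.3 and 70.5 CPM at 3 weeks, and 78.1, 61.8 and 75.6 CPM at 7 weeks, and 1 of 5, Snap25, was called lower at both times, with mean levels of 38.6, 12.9 and 10.7 CPM. Nefm was below Control in all 3-week libraries and not called (log2 fold change −0.85 at 3 weeks, adjusted p = 0.0708, and −0.27 at 7 weeks, adjusted p = 0.539). Its mean levels were 28.6 CPM in Control, 15.9 CPM at 3 weeks and 23.8 CPM at 7 weeks. Nefl had 38.2, 33.3 and 33.2 CPM and Tubb3 3.40, 6.07 and 3.30 CPM, and neither was called. Nefh, of the same list, was above Control in all treated libraries and not called (log2 fold changes 2.94 and 2.13, adjusted p = 0.177 and 0.256). Its mean levels were 0.213 CPM in Control, 1.65 CPM at 3 weeks and 0.945 CPM at 7 weeks. Snap25 thus had the largest drop in mean level of this list, and Nefl, Nefm and Tubb3 overlapped Control at 7 weeks.

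Of the other marker lists, mesenchyme markers, led by Pdgfra, summed to between 584 and 638 CPM in Control, 553 and 737 CPM at 3 weeks, and 500.3 and 626 CPM at 7 weeks, and overlapped, with 1 of 5, Lum, called lower at 7 weeks. Endothelium markers, led by Kdr, summed to between 152 and 158 CPM in Control, 168 and 197 CPM at 3 weeks, and 166 and 238 CPM at 7 weeks, so all 6 treated libraries were above Control, with 1 of 3, Cdh5, called higher at 7 weeks and Pecam1 without an entry. Dark cell and melanocyte markers, led by Pmel, summed to between 538 and 571 CPM in Control, 522 and 575 CPM at 3 weeks, and 449 and 473 CPM at 7 weeks, where all libraries were below Control, with 1 of 4, Kcnq1, called lower at 7 weeks and Dct without an entry. Tyrp1, of the same list, was above Control in all 7-week libraries, at 2.16 CPM in Control and 5.10 CPM at 7 weeks, and not called (log2 fold change 1.24, adjusted p = 0.171). Erythrocyte markers, led by Hba-a2, summed over 5 entries to between 225 and 274 CPM in Control, 319 and 403 CPM at 3 weeks, where all libraries were above Control, and 203 and 298 CPM at 7 weeks, with 3 of the 5 entries higher at 3 weeks at an unadjusted p under 0.05. Over all 15517 genes tested, 2444 had such a p at 3 weeks, in either direction. Every marker found in the lists given here had counts.

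Some members share their stretch of genome with other genes in RefSeq (GRCr8). The authors' SMARTseq2 protocol names no strand-specific step, and the labels do not state whether counting used the strand. Cdh23 overlaps Psap, Vsir and C20h10orf105, Cib3 overlaps Hsh2d, and Cib2 overlaps Sh2d7. Pcdh15 overlaps 6 other loci, of which the table holds 1, with 0 counts, and Cdh23, Tmc2 and Tmie each overlap 1 uncharacterised locus. Psap had mean levels of 1279, 1399 and 1405 CPM in Control, at 3 weeks and at 7 weeks, and was not called at either time (adjusted p = 0.494 and 0.438). Vsir had 5.80, 4.48 and 3.26 CPM, with log2 fold changes of −0.37 and −0.83, and was not called (adjusted p = 0.645 and 0.207). Hsh2d had 2.02, 1.86 and 5.55 CPM and was not called (adjusted p = 0.945 and 0.147). Tmc1 and Lhfpl5 overlap no other RefSeq gene. The authors counted reads on another rat genome build and annotation, in which overlaps were not looked up. Any counts passed between overlapping genes could not be measured from a table of gene totals.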

How the data were processed

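Gene counts from vestibular epithelium of 9 rats (3 Control, 3 IDPN-3wk, 3 IDPN-7wk) were used. The authors mapped SMARTseq2 reads with STAR 2.5.3a and deposited estimated counts (expected counts) per gene from RSEM 1.3.0. Genes were filtered with filterByExpr, scaled by TMM and tested with edgeR 4.0.16 (robust quasi-likelihood fit of all 9 libraries, R 4.3.3, limma 3.58.1), with Benjamini-Hochberg adjustment over 15517 genes. Genes called had adjusted p under 0.05 and fold change above 1.5. DESeq2 1.42.0 was an alternative. Others were RLE size factors, other filters and fold thresholds, non-robust estimation, only the 2 groups compared, a covariate for or omission of the libraries with fewer detected genes, and leaving out each replicate. Ratios were tested by exact two-sided permutation. Steps were tested on simulated data.

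The members, 14 pathway genes, related genes, hair cell reference genes and markers of supporting cells, neurons, macrophages, mesenchyme, endothelium, dark cells and melanocytes, and erythrocytes were chosen with earlier results of these data known; another marker list was counted and is not described. All members were named. Pathway genes were named with values when called or when Tomt, Ush1c, Ush1g or Myo7a, related genes when called or most abundant in their family, and the 5 genes nearest to the members' average by root mean square difference of centred log2 CPM (prior count 2). Promoters were taken from RefSeq by symbol.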

Additional observations from a re-analysis of the deposited data

How the results depend on the processing

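For the 24 fold changes of the members, 381 alternatives were run: 350 kept the direction and the side of the threshold, 15 kept the direction and lost the call, 6 gained a call and 10 changed sign. The 350 include fold changes that were not called in the main fit and stayed so. Alternatives that only moved the fold threshold reused the main fit and could not change direction. Of 16 alternatives each, the call was lost in 5 for Cdh23, 6 for Cib3 and 3 for Lhfpl5 at 7 weeks. For Tmc1 it was lost in 1 of 16 at 3 weeks and 0 of 16 at 7 weeks. Where values changed, the cause was not tested. Signs changed for Tmie at 3 weeks (−0.0231 with the covariate, −0.0517 to 0.0811 leaving out each replicate), Cib2 at 3 weeks (−0.0961 to 0.2185 leaving out each replicate), Tmc1 at 7 against 3 weeks (−0.0520 to 0.1022) and Tmc2 at 7 against 3 weeks (−0.4158 with the covariate, −0.1304 without the libraries with fewer detected genes). The number of members called lower at 3 weeks, 1, was 2 by DESeq2 (3.50% of all genes) and 2 without the libraries with fewer detected genes (1 treated library, 1.05%), and 0 to 1 leaving out each replicate, 0 without Control 2. At 7 weeks it was 4 (3.13% of all genes), 5 by DESeq2 (5.33%), 5 with only the 2 groups compared (5.08%), 6 without the libraries with fewer detected genes (5.44%), 3 with the covariate (2.88%) or a fold of 2 (1.83%), and 1 to 3 leaving out each replicate; at 7 against 3 weeks it was 0 throughout. Members lower in all libraries, 3 at 3 weeks and 1 at 7 against 3 weeks, numbered 5 and 4 without the libraries with fewer detected genes, an alternative chosen after seeing the data that leaves 1 library at 3 weeks, against 39.1% and 28.7% of all genes. Of the 5 nearest genes, 3 were shared with a prior count of 0.5 and 0 without Pcdh15. Relative to the hair cell reference genes, 1 member, Lhfpl5, was lower in all libraries at 7 against 3 weeks, against 3.1% of all genes. This count was 0 without Otof and Cabp2, 0 with a mean of log2 CPM, and 1 to 2 leaving out each replicate. Pcdh15 had no value under a filter of 10 counts in every library. Levels per length were not run, as no lengths were given.

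With 3 rats a group, the exact permutation test cannot give a p under 0.1. No paired analysis was run, as each library came from a different rat and the labels give no pairs. Of the members Pcdh15 had the fewest counts, and the libraries with fewer detected genes fell unevenly over the groups, so part of the 3-week comparison and that difference cannot be told apart.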
